A study of Rattus norvegicus with 6 samples.

Results

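The miR-23, miR-24 and miR-27 microRNAs (miRNAs) of rat nucleus pulposus, the soft centre of an intervertebral disc, were compared between discs that had been compressed for 4 weeks to induce disc degeneration (IDD, 3 libraries) and sham discs, labelled as carrying K-wires for 4 weeks (Sham, 3 libraries). Members were all entries of the raw miRNA table named miR-23a, miR-23b, miR-24, miR-27a or miR-27b. The comparison addresses which miRNAs are responsive to mechanical load on the disc. Members filled 8 of 491 rows and, with repeats of one mature sequence counted once, 7 of 442 sequences. Every library was made from total RNA of the tissue, the labels give neither the strain nor the age of the rats, and they do not tie libraries to separate animals. The p-values therefore measure the spread between these samples, which may be technical.

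A miRNA is cut from one arm of a hairpin, the 5p or the 3p arm, and pairs with target mRNAs mainly through its seed, bases 2 to 8. Vertebrate genomes carry a pair of paralogous clusters, miR-23a with miR-27a and miR-24-2, and miR-23b with miR-27b and miR-24-1, whose hairpins lie next to each other and can be cut from 1 primary transcript. In human cells miR-23a and miR-23b repress mitochondrial glutaminase, miR-24 lowers the cell cycle inhibitor encoded by the Cdkn2a locus, and miR-27b represses the collagenase Mmp13 in chondrocytes. Members of the miR-27 family also restrain adipocyte differentiation in mouse and human cells, and both clusters are abundant in endothelium.

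The mature sequences are shown first because the paralogs can be told apart by a single base. In the lines that follow, capitals mark the seed, and each sequence is given 5′ to 3′ as in the deposited table.
miR-23a-3p: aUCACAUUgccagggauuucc
miR-23b-3p: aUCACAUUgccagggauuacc
miR-27a-3p: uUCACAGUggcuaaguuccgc
miR-27b-3p: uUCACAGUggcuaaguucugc
miR-24-3p: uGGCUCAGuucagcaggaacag
miR-24-2-5p: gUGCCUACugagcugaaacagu
miR-27a-5p: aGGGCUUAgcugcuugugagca
All 7 were found in RefSeq with identical letters. The miR-23 paralogs share the seed UCACAUU and the miR-27 paralogs the seed UCACAGU, and no other listed sequence carries either. Counted from 1 at the 5′ end, miR-23a-3p and miR-23b-3p differ by U19A alone, and miR-27a-3p and miR-27b-3p by C19U alone. Both differences lie outside the seed. Counts within each pair are uncertain where the authors' counting could assign a read to the wrong paralog.

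In RefSeq on build GRCr8 the miR-23a cluster lies on the minus strand of chromosome 19 (chr19:40859455-40859843), in the order Mir23a, Mir27a, Mir24-2 over 389 bases, between the protein-coding genes Zswim4 and Nanos3. The miR-23b cluster lies on the minus strand of chromosome 17 (chr17:1818669-1819482), in the order Mir23b, Mir27b, Mir24-1 over 814 bases, inside the span of the gene Aopep. The submitters' processing notes name the build Rnor_6.0, so these are not positions used by the authors. miR-24-3p is encoded at both loci with the same letters, and its tags cannot be given to either cluster. The other arm of the miR-24 hairpins does tell them apart. The listed miR-24-2-5p and the RefSeq sequence of miR-24-1-5p (gUGCCUACugagcugauaucag) differ at 5 positions, all outside the shared seed. miR-24-1-5p, miR-23b-5p and miR-27b-5p, annotated by RefSeq, were not listed in any library. The only members specific to the miR-23b cluster were thus miR-23b-3p and miR-27b-3p. Whether any miR-24-3p tags came from it cannot be told.

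Total tags ranged from 189802 to 246422 in IDD and from 169783 to 253807 in Sham. Established miRNAs, those without a provisional name, held 77.8% to 83.1% of tags in IDD and 49.5% to 56.2% in Sham, and the groups did not overlap, so that a level relative to all tags and one relative to established miRNAs can go different ways. Levels are given as CPM, tag counts relative to library totals after TMM scaling. A count of 3 was worth 11.6 to 16.96 CPM. The lowest count of any member was 18, so all 7 passed the filter on low counts and were tested. PCR copies of a molecule are not independent, so intervals and this floor reflect only counting error. miR-140 and miR-455, miRNAs of cartilage and disc, were listed with both arms, in total at 116094 to 121304 CPM in IDD and 91082 to 103488 CPM in Sham. Of this total miR-140-3p alone held 92.6% to 94.3%.

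Compression was accompanied by a rise of miR-24-3p and of miR-23a-3p and by a fall of miR-23b-3p, whereas neither miR-27 paralog, miR-27a-5p nor miR-24-2-5p passed the test. The test was edgeR's quasi-likelihood test over 131 sequences with Benjamini-Hochberg adjustment. Of the 7 members 2 were higher and 1 lower at an adjusted p below 0.05, against 29.0% higher and 30.5% lower over all sequences tested, and 59.5% in either direction. The median log2 fold change was 0.18 over the members and 0.03 over all tested sequences. In CPM the groups did not overlap for 5 of the 7, with 4 higher and 1 lower in IDD, where 66.4% of all tested sequences did not overlap, 35.9% of the total higher and 30.5% lower. Neither count sets the members apart from the other sequences.

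miR-24-3p had 359, 249 and 323 tags in IDD 1, 2 and 3 and 183, 219 and 188 in Sham 1, 2 and 3. In CPM this was 1392, 1276 and 1350 in IDD against 862, 923 and 1063 in Sham, so every IDD library lay above every Sham library. The mean was 1340 ± 58.7 CPM in IDD and 949 ± 103 in Sham (SD, n = 3 each), a rise of 1.42-fold (log2 0.50, SE 0.12, edgeR adjusted p = 0.00208). Among the members called, it alone kept its call under all 18 alternative settings tried, with log2 fold changes from 0.36 to 0.73 and an adjusted p of at most 0.0253. These settings include its sum with a shorter tag, described below, which is not a test of miR-24-3p by itself.

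**Figure D1:**
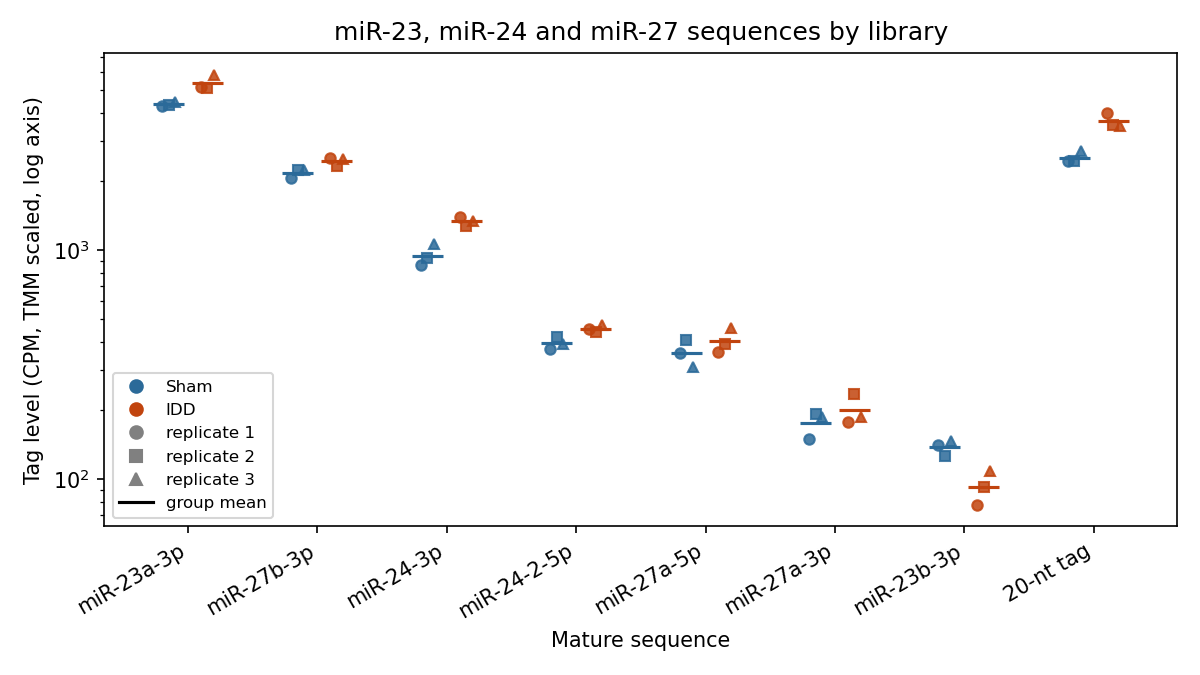
Level of each sequence in each library (CPM after TMM scaling, log axis), with Sham in blue, IDD in orange, marker shapes for replicates and short lines for group means. miR-23a-3p sits highest at 4277 to 5863 CPM and miR-23b-3p lowest at 77.6 to 147, and the 20-nt tag, which has the first bases of miR-24-3p, lies above miR-24-3p in every library.

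A further tag carries the letters of miR-24-3p under another name. A sequence with a provisional name, which places it on chromosome 19, is identical to the first 20 of the 22 bases of miR-24-3p and thus holds the whole seed. The pair is shown to let the ends be compared, with the seed in capitals.
miR-24-3p: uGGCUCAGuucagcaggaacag
20-nt tag: uGGCUCAGuucagcaggaac
Both runs occur in the hairpins of Mir24-1 and Mir24-2, so the letters do not place the tag at either. The name was given by the authors' processing. The 20-nt tag had 1028, 691 and 838 tags in IDD and 520, 580 and 481 in Sham, which makes it more abundant than the full-length sequence in every library. Whether a read of the full length also adds to the count of the shorter tag is not stated in the labels or headers.

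The 20-nt tag rose by 1.45-fold, from 2538 ± 157 CPM in Sham to 3677 ± 269 in IDD (SD, n = 3 each, log2 0.54, SE 0.11, edgeR adjusted p = 0.000715). Its 3 IDD values, 3987, 3542 and 3502 CPM, lay above its Sham values of 2450, 2445 and 2719. This call was kept under all 17 settings tried for it. The ratio of the shorter tag to miR-24-3p was 2.74 ± 0.137 in IDD and 2.68 ± 0.145 in Sham and ranged from 2.56 to 2.86, so the libraries of the 2 groups overlapped. With the tag added to miR-24-3p, a choice made after the values were seen, the sum was 5017 ± 315 CPM in IDD and 3487 ± 257 in Sham (SD, n = 3 each, log2 0.53, SE 0.11, edgeR adjusted p = 0.000843). The sum lay below miR-23a-3p in all 3 Sham libraries and in IDD 2 and 3, and above it in IDD 1 (5379 against 5178 CPM).

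miR-23a-3p, the most abundant member, had 1335, 995 and 1403 tags in IDD and 908, 1027 and 788 in Sham. Scaled, it stood at 5178, 5100 and 5863 CPM in IDD and at 4277, 4329 and 4455 in Sham, with no overlap. The mean rose from 4354 ± 91.1 to 5380 ± 420 CPM (SD, n = 3 each), 1.24-fold (log2 0.31, SE 0.11, edgeR adjusted p = 0.0230). The call was lost without IDD 3 (adjusted p = 0.0865), Sham 1 (0.0627), Sham 2 (0.122) or Sham 3 (0.0667), with DESeq2's size factors in edgeR (0.0550) and when scaled on established miRNAs alone (log2 0.17, adjusted p = 0.221). It also missed a threshold of 0.01.

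miR-23b-3p, which differs from it by 1 base, went the other way. It had 20, 18 and 26 tags in IDD and 30, 30 and 26 in Sham. These counts correspond to 77.6, 92.3 and 109 CPM in IDD and 141, 126 and 147 in Sham, and again the groups did not overlap. Its mean fell from 138 ± 10.6 to 92.8 ± 15.6 CPM (SD, n = 3 each), 1.48-fold lower (log2 −0.57, SE 0.19, edgeR adjusted p = 0.0290). The summed counts of 64 against 86, scaled for depth, gave a ratio of 0.673 with an exact 95% counting interval of 0.479 to 0.942. The call was lost with DESeq2 (adjusted p = 0.129), with library size alone (0.153), without the filter on low counts (0.0517), on the authors' normalized values (0.0761 with a pseudocount of 1 and 0.119 with 10) and without IDD 1 (0.1496), IDD 2 (0.0704) or Sham 1 (0.0692), and it missed a threshold of 0.01.

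The balance within the miR-23 pair does not depend on how libraries are scaled. miR-23b-3p made up 3.08% ± 0.207 of the pair's tags in Sham and 1.69% ± 0.187 in IDD (SD, n = 3 each, two-sided exact permutation of libraries, p = 0.1, the smallest that 3 against 3 libraries allow; Benjamini-Hochberg adjusted p = 0.175 over 7 shares compared). The highest IDD library stood at 1.82% (95% Wilson interval 1.24 to 2.65) and the lowest Sham library at 2.84% (2.00 to 4.02), so the groups did not overlap but these intervals did. miR-23a-3p exceeded its paralog 54.0- to 66.8-fold in the IDD libraries and 30.3- to 34.2-fold in the Sham libraries. With both paralogs summed before the fit, which removes the question of misassigned reads, the miR-23 seed rose by 0.25 on the log2 scale (SE 0.11) and did not pass (edgeR adjusted p = 0.0772). That fit was scaled anew, which also moved sequences that were not summed, such as miR-24-3p from log2 0.50 to 0.47. The lower value and the lost call thus cannot be put down to the summing alone.

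**Figure D2:**
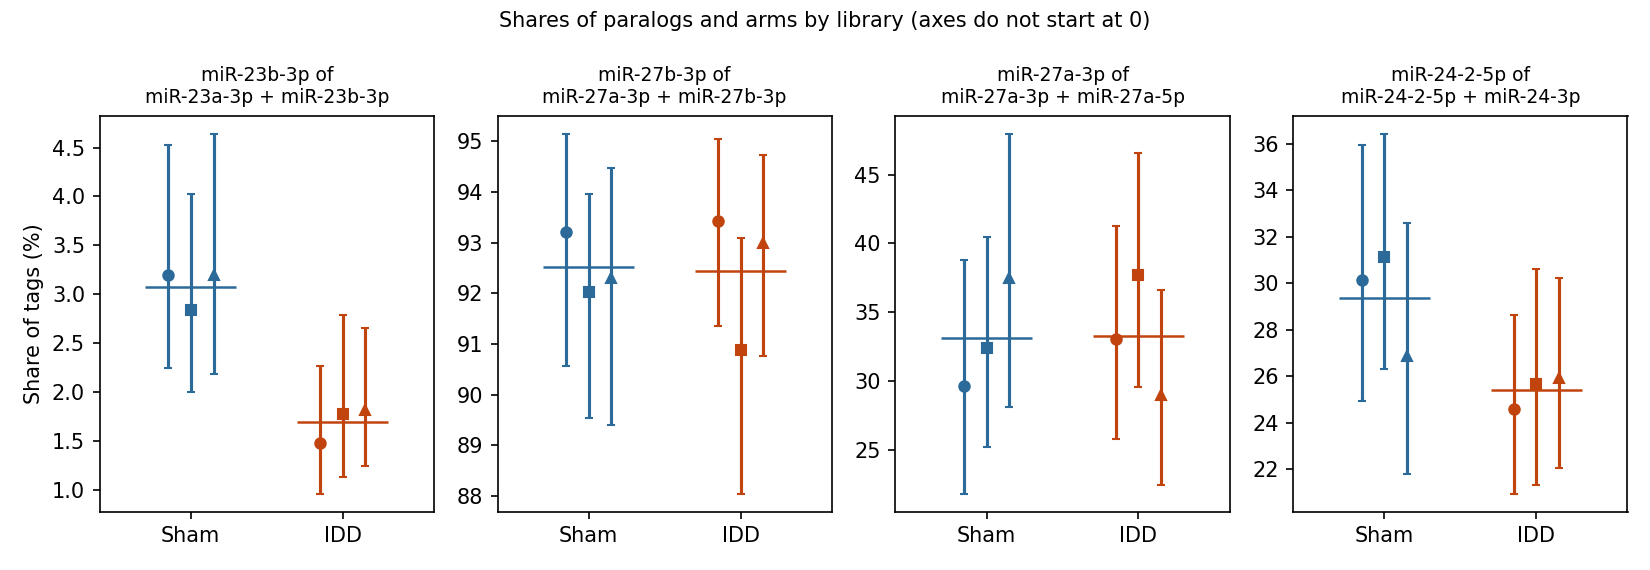
Share of tags in each library (%, each panel with its own axis, none starting at 0) held by miR-23b-3p and miR-27b-3p within their pairs, by miR-27a-3p within its hairpin and by miR-24-2-5p next to miR-24-3p, with Sham in blue, IDD in orange, 95% Wilson intervals as bars and group means as lines. The IDD libraries lie below the Sham libraries for miR-23b-3p and miR-24-2-5p, and the groups overlap in the miR-27 panels.

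In the miR-27 pair the order of the clusters was the reverse of that in the miR-23 pair, with the paralog from chromosome 17 in the majority. miR-27b-3p had 655, 458 and 598 tags in IDD and 439, 531 and 396 in Sham. Its CPM were 2540, 2348 and 2499 in IDD and 2068, 2238 and 2239 in Sham, without overlap. The difference of 0.18 on the log2 scale (SE 0.10, edgeR adjusted p = 0.155) did not pass. It passed with library size alone (log2 0.35, adjusted p = 0.0394) and on the authors' normalized values (0.40, adjusted p = 0.0258 with a pseudocount of 1).

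miR-27a-3p had 46, 46 and 45 tags in IDD and 32, 46 and 33 in Sham. Its levels of 178 to 236 CPM in IDD and 151 to 194 CPM in Sham overlapped, and the difference did not pass (log2 0.16, SE 0.17, edgeR adjusted p = 0.477, and log2 0.06 without Sham 1). The b paralog held 92.5% ± 0.616 of the pair's tags in Sham and 92.4% ± 1.37 in IDD (SD, n = 3 each, two-sided exact permutation of libraries, p = 0.9), a difference of −0.0763 percentage points (IDD minus Sham). Leaving out one library at a time moved that difference between −0.577 and 0.706 points. With the paralogs summed, the miR-27 seed stood 0.14 higher in IDD on the log2 scale (SE 0.10, edgeR adjusted p = 0.275) and did not pass. This value lies below those of both paralogs because the summed fit was scaled anew. In it miR-27a-5p, which was not summed, also moved, from log2 0.16 to 0.13.

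Levels within a cluster were uneven, and the clusters ran in opposite orders. From the chromosome 19 cluster miR-23a-3p exceeded miR-27a-3p 21.6- to 31.2-fold over the 6 libraries. From the chromosome 17 cluster miR-27b-3p exceeded miR-23b-3p 23- to 32.8-fold in IDD and 14.6- to 17.7-fold in Sham. Tags of 21 or 22 nt each stand for a whole molecule, so no length correction was made, but ligation to adaptors can favour some sequences, and levels of different sequences are compared here as tags. By CPM the order was miR-23a-3p, miR-27b-3p, miR-24-3p, miR-24-2-5p, miR-27a-5p, miR-27a-3p and miR-23b-3p. That order held in all 6 libraries, but the ranges of the neighbours miR-24-2-5p and miR-27a-5p overlapped in both groups.

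Over all tags specific to one cluster, thus without miR-24-3p, the chromosome 17 cluster supplied 28.4% ± 1.30 in IDD and 30.5% ± 0.464 in Sham (SD, n = 3 each, two-sided exact permutation of libraries, p = 0.1, adjusted p = 0.175). The highest IDD library, at 29.79%, and the lowest Sham library, at 29.99%, lay close together. miR-23a-3p and miR-27b-3p held 85.2% to 87.8% of these tags in each library, and their ratio was 2.19 ± 0.154 in IDD and 2.00 ± 0.0674 in Sham.

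Arms were compared for the hairpins with both arms listed. The hairpin of Mir27a is printed beside that of Mir27b because the tags listed for their arms differed. Capitals mark the mature 5p and 3p arms, both from RefSeq on GRCr8, minus strand, at chr19:40859603-40859689 and chr17:1819147-1819243.
Mir27a: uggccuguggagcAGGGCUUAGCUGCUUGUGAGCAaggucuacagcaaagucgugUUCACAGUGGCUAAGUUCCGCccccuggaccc
Mir27b: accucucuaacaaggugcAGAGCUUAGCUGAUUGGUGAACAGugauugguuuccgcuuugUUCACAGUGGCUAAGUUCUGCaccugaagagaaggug
For Mir27a the 5p arm, often called the passenger strand, had the more tags, whereas for Mir27b only the 3p arm was listed. miR-27a-5p had 93, 76 and 110 tags in IDD and 76, 96 and 55 in Sham, 1.65- to 2.44-fold above miR-27a-3p in the 6 libraries. It stood at 361 to 460 CPM in IDD and 311 to 405 in Sham, which overlapped, and did not pass (log2 0.16, SE 0.14, edgeR adjusted p = 0.367), though it did on the authors' normalized values (0.41, adjusted p = 0.0222 with a pseudocount of 1). Without Sham 3 its log2 fold change was 0.0023. The 3p arm held 33.2% ± 3.99 of the hairpin's tags in Sham and 33.3% ± 4.34 in IDD (SD, n = 3 each, two-sided exact permutation of libraries, p = 0.9). Reads of the 3p arm that were counted as miR-27b-3p, 1 base apart, would lower this share.

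miR-24-2-5p, the arm specific to chromosome 19, had 117, 86 and 113 tags in IDD and 79, 99 and 69 in Sham. Its CPM were 454, 441 and 472 in IDD and 372, 417 and 390 in Sham. The groups did not overlap, but the difference did not pass (log2 0.21, SE 0.12, edgeR adjusted p = 0.141). It passed with library size alone (log2 0.40, adjusted p = 0.0256) and on the authors' normalized values (0.44, adjusted p = 0.0147 with a pseudocount of 1). Next to miR-24-3p, which both loci encode, it held 25.4% ± 0.712 of the tags of the 2 arms in IDD and 29.4% ± 2.24 in Sham (SD, n = 3 each, two-sided exact permutation of libraries, p = 0.1, adjusted p = 0.175). With the 20-nt tag counted as 3p arm, a choice made after the values were seen, the share was 8.34% ± 0.546 in IDD and 10.2% ± 0.839 in Sham (two-sided exact permutation of libraries, p = 0.1, n = 3 each). No arm of Mir24-1 other than the shared one was listed, so the part of each locus in the rise of miR-24-3p cannot be told apart.

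**Figure D3:**
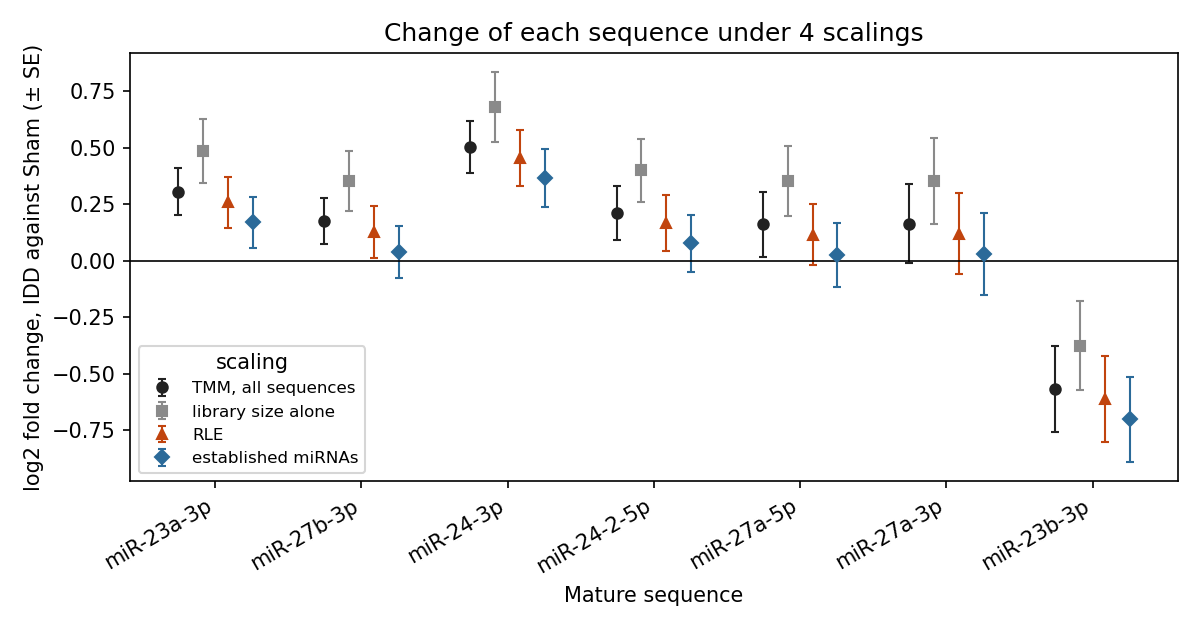
Log2 fold change of each member, IDD against Sham, with its SE, under TMM over all sequences, library size alone, DESeq2's size factors (RLE) and TMM over established miRNAs. miR-23b-3p lies below 0 and the other 6 above it under all 4, while the values of miR-27a-3p, miR-27a-5p and miR-27b-3p come down to 0.03 to 0.04 when scaled on established miRNAs.

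The size of each difference depends on the reference. Scaling on established miRNAs moved the median log2 fold change of all tested sequences by −0.13, and library size alone moved it by 0.19. The authors' normalized values, with a pseudocount of 1, moved that median by 0.26. The passes of miR-27b-3p, miR-27a-5p and miR-24-2-5p on those values came with this general shift. In the fitted log2 fold changes no member turned direction under these scalings, but as plain shares of the tags of established miRNAs several did. The 7 members together took up 0.806% ± 0.114 of all tags in Sham and 1.10% ± 0.106 in IDD (SD, n = 3 each, two-sided exact permutation of libraries, p = 0.1, adjusted p = 0.175). Of the tags of established miRNAs they held 1.36% ± 0.119 in IDD and 1.51% ± 0.119 in Sham (two-sided exact permutation of libraries, p = 0.2, adjusted p = 0.280, n = 3 each), so the direction of the share turned with the denominator. By this denominator the mean of miR-24-3p alone was higher in IDD. miR-24-3p held 0.176% ± 0.00821 and 0.168% ± 0.0263 (two-sided exact permutation of libraries, p = 0.6, n = 3 each), and miR-23b-3p held 0.0123% ± 0.00256 and 0.0244% ± 0.00260 (p = 0.1, exact), IDD first. miR-23a-3p, called higher in CPM, held 0.710% ± 0.0817 of these tags in IDD and 0.769% ± 0.0524 in Sham (p = 0.3, exact, n = 3 each). The mean of miR-27b-3p was 0.324% ± 0.0165 in IDD and 0.385% ± 0.0332 in Sham (p = 0.1, exact, n = 3 each). The means of miR-24-2-5p (p = 0.2), miR-27a-5p (p = 0.3) and miR-27a-3p (p = 0.3, all exact) were also lower in IDD by this denominator.

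Named by closeness of pattern, the root mean square difference of centred log2 CPM over the 6 libraries among 101 other established miRNAs, the nearest to miR-23a-3p were miR-378a-3p (0.0745), miR-22-3p (0.0839) and miR-3068-3p (0.0986). Nearest to miR-24-3p were miR-185-5p (0.0902), miR-30a-5p (0.105) and miR-128-3p (0.130). Nearest to miR-27b-3p were miR-22-3p (0.0544), miR-30c-5p (0.0588) and miR-125b-5p (0.0685). miR-22-3p was near both miR-23a-3p and miR-27b-3p, and itself rose by 0.25 on the log2 scale (SE 0.10, edgeR adjusted p = 0.0461), a call lost when scaled on established miRNAs (0.11, adjusted p = 0.408) or with DESeq2's size factors (adjusted p = 0.131).

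Other miRNAs reported to act in angiogenesis, a field in which these clusters are well known, were mostly too scarce to test. Of 15 names 8 were listed, as 12 sequences, of which 3 were tested, 1 higher, 1 lower and 1 not passing. Over all tested sequences 29.0% were higher and 30.5% lower. The hypoxia-induced miR-210-3p fell (log2 −0.33, SE 0.12, edgeR adjusted p = 0.0339), a call lost with library size alone (adjusted p = 0.410), and miR-378a-5p rose (0.93, SE 0.22, adjusted p = 0.0449), a call lost with DESeq2 (adjusted p = 0.212) and when scaled on established miRNAs (adjusted p = 0.0962). Both this list and the next were chosen with earlier results of these data known, so their counts are description and no set was tested. Of 20 names known from skeletal and adipose differentiation 14 were listed and 12 sequences tested, some of them both arms of 1 hairpin. Of these 12, 6 were higher and 6 did not pass, with a median log2 fold change of 0.30, against 29.0% higher and a median of 0.03 over all tested sequences. Among them were miR-29a-3p, which targets collagen mRNAs (1.17, SE 0.12), miR-103-3p, a regulator of adipocytes (0.79, SE 0.11), and miR-455-3p of cartilage (1.16, SE 0.30), each with an edgeR adjusted p of at most 0.00423. The other 3 calls were lost when scaled on established miRNAs, those of miR-140-3p (adjusted p = 0.278), miR-199a-3p (0.152) and miR-22-3p (0.408). miR-455-3p had only 65 counts in IDD and 26 in Sham. The other arm of its hairpin, miR-455-5p, had 59 and 55 and did not pass (log2 −0.04, edgeR adjusted p = 0.916).

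Markers of other cells that may hold these miRNAs moved in both directions. Tags come from bulk tissue, in which fewer cells of a type and less RNA per cell cannot be told apart. Of 3 endothelial names only miR-126a was listed, at 23.3 to 29.3 CPM over both arms in IDD and 33.7 to 47.1 in Sham. These are few tags, in total 16 in IDD and 25 in Sham for miR-126a-3p and 2 and 0 for miR-126a-5p. Neither arm was tested. Skeletal muscle miRNAs, 5 of 6 names without miR-133b, summed to 350743 to 414307 CPM in IDD and 218418 to 241896 in Sham, of which miR-1b alone held 99.5% to 99.6%. Of 5 muscle sequences tested 3 were higher and 2 did not pass, against 29.0% higher over all sequences tested. Higher were miR-1b (log2 0.74, edgeR adjusted p = 5.19e-05), miR-206-3p (1.71, 7.82e-05) and miR-1-3p (0.74, 0.00423). miR-133a-3p (log2 0.55, edgeR adjusted p = 0.124) and miR-499-5p (−0.08, 0.821) did not pass. Leukocyte miRNAs, 3 of 5 names without miR-142 and miR-155, summed to 82.0 to 101 CPM in IDD and 46.4 to 56.5 in Sham. Of this sum miR-342-3p held 50.0% to 85.7%, and it was higher in IDD (log2 1.34, edgeR adjusted p = 0.000781) on 51 counts in IDD and 18 in Sham. miR-150-5p had 12 counts in IDD and 8 in Sham, miR-223-5p had 0 and 6, and neither was tested. Red blood cell miRNAs, 2 of 3 names without miR-144, summed to 697 to 761 CPM in IDD and 923 to 952 in Sham, of which miR-486 held at least 97.3%, while miR-451-5p had 9 counts in IDD and 3 in Sham. miR-486 was lower in IDD (log2 −0.39, edgeR adjusted p = 0.00650), a call lost with library size alone (adjusted p = 0.183). Of 5 epithelial names only miR-200a was listed, and only in Sham, at 127 to 362 CPM. The liver miRNA miR-122 stood at 7679 to 7894 CPM in IDD and 7774 to 8265 in Sham. Their part in the values of the members was not tested.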

How the data were processed

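Small RNA libraries of about 22 nt inserts from rat nucleus pulposus were read on an Illumina NovaSeq over 50 cycles, as the labels' protocols state. Per the file headers, the authors deposited untransformed counts of tags for each mature miRNA. Novoalign 3.02.12, cutadapt 1.9.3 and Rnor_6.0 are named with no role in the submitters' processing notes, and for the miRNA caller no name is given in the sources used here. Blank cells were set to 0 (lowest listed count 2). The deposited normalized tag counts, rounded by the authors and treated as a score, served only as an alternative.

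Distinct sequences were filtered with filterByExpr (minimum count 10), scaled with TMM and tested with edgeR 4.0.16 (R 4.3.3), robust quasi-likelihood, two-sided, at an adjusted p below 0.05. The SE was taken as the size of the log2 fold change divided by the root of F. Shares were compared with exact permutation tests (scipy 1.17.1), and 7 of these were adjusted together. Further tests, on the shares of single members and on shares with the shorter tag added, lay outside that adjustment. Their p-values are unadjusted. Arm shares required a mean of 10 counts in the minor arm. Sequences and positions came from RefSeq (GRCr8). The fit was tested on simulated data. Alternatives used DESeq2 1.42.0, limma 3.58.1, other scalings, filters and thresholds, summed paralogs and left-out libraries.

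Named miRNAs were all members, the 3 nearest in pattern to the most abundant member of each family, and up to 3 called members per list. Members and lists were chosen with earlier results of these data known. Same-numbered libraries deviated together weakly (correlations of 0.111, 0.112 and 0.204, each over 0.1). IDD 2 with Sham 1, of unlike numbers, had 0.109, about as high, but the other pairs of unlike numbers ran from −0.214 to 0.0116. The same-numbered pairs thus had the highest correlations. No label states a pairing. The main tests therefore took the libraries as unpaired, and the replicate number served as a block only in an alternative.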

Additional observations from a re-analysis of the deposited data

How the results depend on the processing

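The 78 calls, 38 higher and 40 lower, became 285, 117 and 168 without the filter on low counts, and the calls higher became 59 on the authors' normalized values with a pseudocount of 10. Leaving out one library gave 58 to 77 calls, with 24 to 36 higher, the fewest without Sham 2, and 34 to 42 lower. The split of higher and lower calls was 52 and 29 with library size alone and 28 and 44 when scaled on established miRNAs. With the replicate block there were 80 calls, 39 higher and 41 lower, and no member's call changed. Paired sign flips of the 7 shares gave p of at least 0.25, which is the smallest that 3 pairs allow. The direction of the miR-27a-3p arm share turned on the authors' normalized values (−0.320 points). Without one library in turn this share moved from −2.11 to 2.26 points and the miR-27b-3p share of its pair from −0.577 to 0.706. The miR-23b-3p share of its pair kept its direction in every setting tried (−1.51 to −1.28 points without one library), as did the cluster share (−2.74 to −1.44) and the miR-24-2-5p arm share (−5.25 to −3.11). No member's log2 fold change changed sign in any setting tried, but that of miR-27a-5p came down to 0.0023 without Sham 3 and that of miR-27a-3p to 0.06 without Sham 1 and 0.03 when scaled on established miRNAs. Calls were lost for miR-23a-3p in 7 of 17 settings and for miR-23b-3p in 9 of 17. Counts of 18 to 30 tags per library limit what can be said of miR-23b-3p.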
